A study of Mus musculus with 6 samples.

Results

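Collagen chain genes were followed in mouse lung after a control or a high fat diet, with 3 wild type mice and 3 arrays in each group. The members were all probe sets of the array whose platform annotation names a single collagen alpha chain gene and no other gene. This gave 82 of 45101 probe sets, for 42 genes. All mice are wild type per the labels, and lung total RNA was hybridised to Affymetrix arrays as biotin-labelled target. The labels used here do not give strain, sex, age, the length of feeding or the composition of either diet. Nothing in the labels says that mice were pooled, or that the mice of a group came from separate litters or cages. The animal numbers in the titles lie in separate ranges for the 2 diets, so a batch that follows them and the diet cannot be told apart.

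Collagens are the main structural proteins of the extracellular matrix. Their alpha chains wind around each other into a triple helix, either as copies of 1 chain or as mixtures of several. Fibrillar types such as I, III and V build the cable-like fibres of airway, vessel and septal walls. Type IV forms a sheet-like network in basement membranes, type VI forms beaded filaments between fibres and cells, and fibril-associated types such as XII and XIV sit on fibre surfaces. In the alveolar wall the fused basement membrane of epithelium and capillary holds the network of the Col4a3, Col4a4 and Col4a5 chains beside that of Col4a1 and Col4a2.

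Each value is an MAS5 intensity that the authors scaled to a trimmed mean of 500 per array, so a signal is relative to the rest of its array. Probe sets at or above the 40th percentile of mean log2 signal, a signal of 70.3, were tested. This kept 51 of the 82 collagen probe sets and 29 of the 42 genes. The kept probe set with the highest mean log2 signal over all 6 arrays, termed the brightest, stands for a gene. This choice uses both groups, so a difference between them can alter it. A gene is called when its adjusted p from limma, over 12689 tested genes, is under 0.05. Differences are high fat minus control on the log2 scale, SE is the standard error of that difference and folds are linear. Beyond that choice, signals of different probe sets were not set against each other, since probes differ in brightness. In whole lung RNA, fewer cells of a type and less RNA per cell cannot be told apart.

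The 13 genes that were not tested were Col2a1, Col6a4, Col6a5, Col9a1, Col9a2, Col9a3, Col10a1, Col11a1, Col11a2, Col19a1, Col24a1, Col25a1 and Col26a1. Several of these are chains of cartilage, such as Col2a1, Col9a1 and Col11a1. Their highest signal on any array ran from 4.91 for Col9a2 to 127 for Col25a1. Without detection calls, these dim signals show neither presence nor absence. Of 11 cartilage markers on the array, Chad and Cytl1 passed the filter and the others, including Acan, Comp, Matn1 and Sox9, did not. Lung epithelial transcripts were bright in every mouse, with Sftpc, the surfactant protein C gene, between 32996 and 69407.

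Several facts of the arrays touch what follows. The median over the array was 143 to 150 in control and 113 to 129 in high fat mice. Dividing the 3' by the 5' control signal, a measure of RNA integrity and labelling, gave 0.768 ± 0.0259 in control and 0.915 ± 0.0538 in high fat mice for Gapdh (SD, n = 3 each, two-sided exact permutation p = 0.1). For b-Actin the ratio was 1.31 ± 0.122 and 1.52 ± 0.0219 (SD, n = 3 each, exact permutation p = 0.1). These are the smallest p-values that 3 against 3 allow, and the part of RNA integrity in the results was not tested. The mean of 8 skeletal muscle markers, relative to control on the log2 scale, was highest in replicate 1 of each group (3.46 and 1.66, against -0.48 or less in the other mice), and the collagen counts were also made without these mice.

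The comparison asks which collagen transcripts differ between lungs of mice on the 2 diets. Of the 29 tested collagen genes, 5 rose in high fat mice, 1 fell and 23 were not called. The genes that rose were Col1a1, Col5a1, Col5a2, Col14a1 and Col23a1, and the gene that fell was Col12a1. The share called higher was 17.2 percent, where 4.56 percent of all tested genes were called higher. The share called lower was 3.45 percent, near the 2.2 percent of all tested genes. Groups did not overlap for 14 collagen genes, 12 above and 2 below control, which is 48.3 percent against 31.8 percent of all tested genes. The median difference was 0.29 for collagen genes and 0.06 for all tested genes. Of the 29, 13 had an unadjusted p under 0.05 (44.8 percent, against 25.5 percent of all genes).

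The size of these counts depended on the scaling and on the variance model. The count called higher fell whichever mouse was left out. Calls over all tested genes fell as well. With 1 mouse left out, 131 to 362 of all genes were called higher (578 in the main fit) and 39 to 214 lower (279). Without an intensity trend these counts were 105 and 31. With arrays centred on their median, 13 collagen genes were called higher and 1 lower, but the median of all tested genes then moved up by 0.27, and the share of all calls that were higher went from 67.4 to 95.4 percent. The collagen median exceeded that of all tested genes by 0.24, by 0.15 without control replicate 3 and by 0.34 without control replicate 1. Without an intensity trend limma called 0 collagen genes higher and 0 lower (11 and 2 with an unadjusted p under 0.05). Genes called higher by limma numbered 2 without control replicate 1 or 2 or high fat replicate 1, and 1 without control replicate 3 or high fat replicate 2 or 3. Col12a1 was not called without control replicate 1, 2 or 3. With 1 mouse left out, Col5a1 was called in 2 of 6 fits, Col1a1 in 1, and Col5a2 and Col14a1 in 0, with adjusted p up to 0.0955, 0.085, 0.142 and 0.13, each in the fit that left out the third control mouse. When the mice with the most skeletal muscle transcripts, replicate 1 of each group, were dropped, 2 genes were called higher (Col1a1 and Col23a1) and 0 lower by limma (1 lower with an unadjusted p under 0.05). With all probe sets of a gene averaged, Col1a1 and Col23a1 were called higher and Col4a3 lower, and Col12a1 was under the filter.

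**Figure D1:**
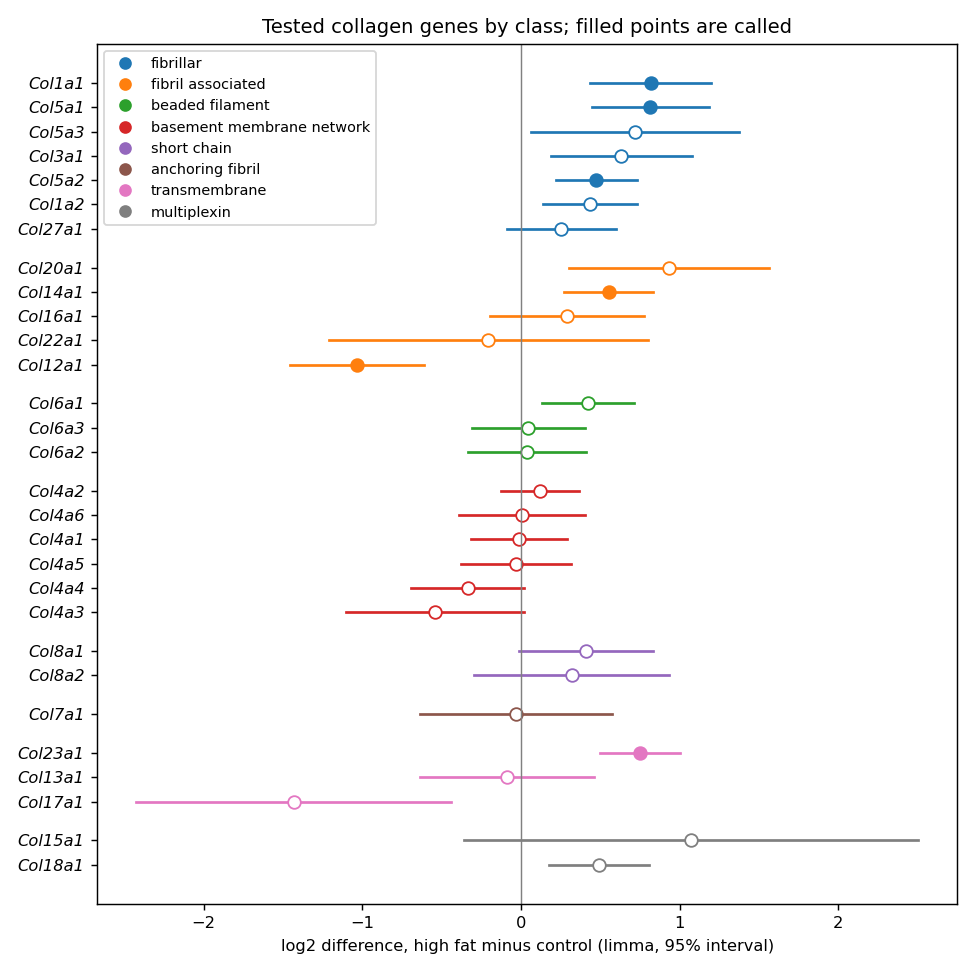
Log2 difference between high fat and control mice for the 29 tested collagen genes, read by their brightest probe set and grouped by class, with 95% intervals from limma; filled points are called. All 7 fibrillar genes lie to the right of 0, the intervals of the 6 type IV genes include 0, and Col12a1 is the only filled point on the left.

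By the brightest probe set, fibrillar collagens, the fibre-forming class, were higher in every high fat mouse than in any control mouse for each of the 7 tested genes. Of these, Col1a1, Col5a1 and Col5a2 rose and 4 were not called, with 6 of 7 at an unadjusted p under 0.05 (median difference 0.63). Of all 12689 tested genes, 2499 lay above control without overlap. Called higher were 4.56 percent of all tested genes, and 25.5 percent had an unadjusted p under 0.05. The sign was positive for all 7 fibrillar genes under quantile normalization. Median centring moved every difference up by 0.27, so it could not turn these signs. It called all 7, in a fit where 95.4 percent of all calls were higher. When all probe sets of a gene were averaged, Col27a1 went to -0.099, since its second probe set lay lower in high fat mice (-0.45). The groups of that probe set did not overlap, and it was not called over probe sets. Col1a1, the major chain of type I collagen, had signals of 1334, 869 and 1161 in control lungs and of 1973, 1750 and 2131 in high fat lungs. The means were 1121 ± 235 and 1951 ± 192 (SD, n = 3 each), a 1.76-fold rise (log2 0.82, SE 0.17, limma adjusted p = 0.0282). Its groups did not touch, and the lowest high fat mouse stood above the highest control mouse by more than the SD of either group. A second, dimmer Col1a1 probe set read 139, 164 and 133 in control and 339, 281 and 690 in high fat mice (log2 1.48, limma adjusted p = 0.0231 over probe sets).

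Col1a2, the partner chain of Col1a1 in type I collagen, read 7744, 8149 and 6468 in control and 9582, 9524 and 10995 in high fat mice. Its difference of 0.43 (SE 0.13) was not called (limma adjusted p = 0.0838), although the groups did not overlap. A second Col1a2 probe set differed by 0.47, and a dim one by -0.47 with overlapping groups. Col3a1, which forms fibres with type I in distensible tissue, read 8193, 7143 and 4659 in control and 9577, 10686 and 9916 in high fat mice. The difference was 0.63 (SE 0.2, limma adjusted p = 0.0892), and 0.66 in its other probe set, so both probe sets gave separated groups without a call. Control replicate 3 had the lowest Col3a1 and Col1a2 signals of the 6 mice.

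Type V collagen is a minor fibrillar collagen that nucleates type I fibres and limits their width. Col5a1 read 659, 959 and 666 in control and 1285, 1340 and 1333 in high fat mice, a 1.76-fold rise (log2 0.82, SE 0.16, limma adjusted p = 0.0248). The high fat mice lay close together, at 1319 ± 29.9, and the controls were more spread, at 761 ± 171 (SD, n = 3 each). Its other tested probe sets differed by 0.33 and 0.27, in the same direction with separated groups and without a call over probe sets. Col5a2 read 1497, 1297 and 1356 in control and 2027, 1835 and 1896 in high fat mice, a 1.39-fold rise (log2 0.47, SE 0.11, limma adjusted p = 0.0426). This was the largest adjusted p among the called collagen genes, and the second Col5a2 probe set, at 0.65, had overlapping groups. Col5a3, the rarer type V chain, read 135, 132 and 79.1 against 210, 160 and 187 (log2 0.72, SE 0.29, limma adjusted p = 0.163).

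RefSeq promoter windows (build GRCm38.p6) were found for 33 of the 42 genes, and among the called genes for Col5a1 and Col23a1 but not for Col1a1, Col5a2, Col14a1 and Col12a1. Both are shown, together with the type I and III chains Col1a2 and Col3a1, so that their letters can be compared. The 250 bases before the start are printed 5′ to 3′ for Col1a2 (chr6:4505368-4505617, plus strand), Col3a1 (chr1:45311288-45311537, plus strand), Col5a1 (chr2:27886175-27886424, plus strand) and the called Col23a1 (chr11:51289670-51289919, plus strand). Capitals mark exact matches on either strand to CCAAT, to TATAAA and to GGGCGG, which do not overlap each other here.
Col1a2: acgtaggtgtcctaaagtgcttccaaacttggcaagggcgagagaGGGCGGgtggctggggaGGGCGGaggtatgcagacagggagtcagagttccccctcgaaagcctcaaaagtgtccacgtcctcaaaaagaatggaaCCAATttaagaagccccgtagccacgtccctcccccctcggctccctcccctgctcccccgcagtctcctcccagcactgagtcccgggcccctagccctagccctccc
Col3a1: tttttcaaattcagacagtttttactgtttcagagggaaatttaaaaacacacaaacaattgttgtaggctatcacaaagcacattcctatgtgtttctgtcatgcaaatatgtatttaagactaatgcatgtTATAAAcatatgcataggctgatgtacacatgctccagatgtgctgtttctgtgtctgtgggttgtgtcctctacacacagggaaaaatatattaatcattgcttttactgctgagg
Col5a1: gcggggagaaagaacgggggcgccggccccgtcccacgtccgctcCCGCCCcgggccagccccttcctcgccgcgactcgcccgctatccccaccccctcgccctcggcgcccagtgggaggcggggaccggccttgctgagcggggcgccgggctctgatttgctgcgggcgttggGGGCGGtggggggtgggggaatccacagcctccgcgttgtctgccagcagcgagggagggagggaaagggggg
Col23a1: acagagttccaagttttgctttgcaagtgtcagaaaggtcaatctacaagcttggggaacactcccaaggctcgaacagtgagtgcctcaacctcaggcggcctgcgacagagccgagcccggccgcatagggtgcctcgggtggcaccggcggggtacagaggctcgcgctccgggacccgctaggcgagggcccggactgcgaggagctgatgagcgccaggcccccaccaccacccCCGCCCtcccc
The Col1a2 window held 1 match to CCAAT and 2 to GGGCGG, the Col3a1 window 1 to TATAAA, the Col5a1 window 2 to GGGCGG and the Col23a1 window 1 to GGGCGG. The share of G and C was 35.2 percent in the Col3a1 window, 62 percent for Col1a2, 66 percent for Col23a1 and 76.4 percent for Col5a1. Among all 32851 windows, 33.8 percent held CCAAT, 12.4 percent TATAAA and 32.7 percent GGGCGG. Among the 36 collagen windows the shares were 36.1, 13.9 and 58.3 percent. A match describes the letters and is not a measured binding site.

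**Figure D2:**
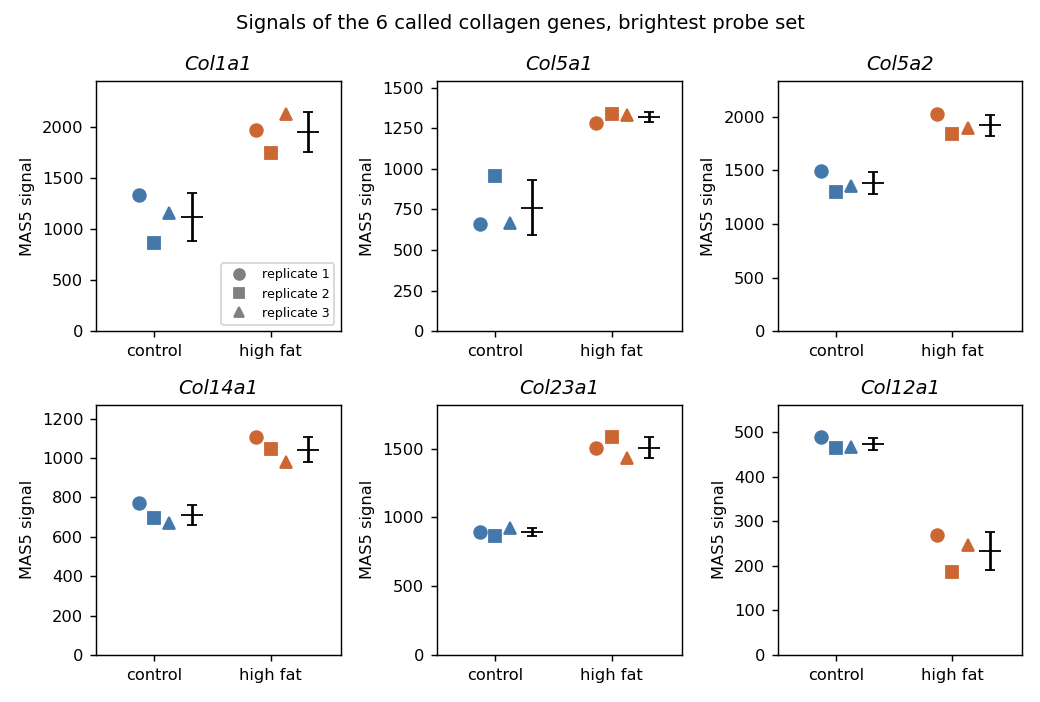
MAS5 signal (linear axis from 0) of the 6 called collagen genes in each of the 3 control and 3 high fat mice; symbols mark the replicate, and the bar at the right of each group is the mean with its SD. In each panel the groups are apart, with Col12a1 the only gene whose high fat mice lie below the controls.

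Fibril-associated collagens, which bind to the surface of fibres, moved in both directions. Of 5 tested genes, Col14a1 rose, Col12a1 fell and 3 were not called. Col14a1 read 770, 694 and 670 in control and 1106, 1044 and 980 in high fat mice, a 1.47-fold rise (log2 0.55, SE 0.12, limma adjusted p = 0.0361). Its second tested probe set showed little difference, with 327, 336 and 239 against 339, 329 and 286 (log2 0.09). Averaging all 3 of its probe sets, 1 of which was too dim to be tested, gave -0.091 for Col14a1.

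Col12a1 read 488, 465 and 467 in control lungs and fell to 269, 187 and 246 in high fat lungs. The means of 473 ± 12.9 and 234 ± 42.5 (SD, n = 3 each) gave a fall to 0.489 times the control level (log2 -1.03, SE 0.19, limma adjusted p = 0.0181). A second probe set read 157, 195 and 181 in control and 76.8, 46.7 and 18.6 in high fat mice. It passed the filter through the control mice, with 2 high fat mice under its signal of 70.3, and is given as a description. By the brightest probe set, the sign of the difference was negative in each of the 14 alternative fits that tested the gene. Type XII collagen is best known from tendon, ligament and other load-bearing tissue. Among the uncalled members of the class, Col20a1 had the largest difference, with 91.2, 89.8 and 120 against 189, 149 and 241 (log2 0.93, SE 0.28, limma adjusted p = 0.0813). Its second tested probe set read 131, 141 and 56.4 against 126, 103 and 135 (log2 0.25), with overlapping groups. The control mean of that probe set, 109, was above the 100 of the brightest. For Col20a1 the choice of the brightest thus depended on the high fat mice. Col16a1 differed by 0.29 and Col22a1 by -0.21, both with overlapping groups.

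Transmembrane collagens stay anchored in the cell membrane. Col23a1, 1 of 3 tested, read 895, 863 and 922 in control and 1506, 1581 and 1431 in high fat mice. This was a 1.69-fold rise from 893 ± 29.3 to 1506 ± 75.1 (SD, n = 3 each, log2 0.75, SE 0.11, limma adjusted p = 0.00987), with the smallest adjusted p of all collagen genes. Its other probe sets differed by 0.54 and 0.22, both with separated groups and neither called over probe sets. By the brightest probe set, Col23a1 was the only collagen gene called in all 6 fits with 1 mouse left out (adjusted p up to 0.0482, without control replicate 2). The other Col4a3 probe set, given below, was also called over probe sets in all 6, as a fall.

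Col17a1 encodes the collagen of hemidesmosomes, which fix basal epithelial cells to their basement membrane. Its signals were 372, 178 and 109 in control and 62.8, 65.5 and 88.9 in high fat mice (log2 -1.43, SE 0.44, limma adjusted p = 0.0859). The groups did not overlap, but the controls ranged widely, and without control replicate 1 the difference was -0.96. The lower high fat signals, 62.8 and 65.5, lay under the filter's signal of 70.3, so the size of the fall is uncertain. Col13a1 read 1335, 1248 and 1311 in control and 831, 1810 and 1214 in high fat mice, so that the spread among high fat mice exceeded any difference between the groups (log2 -0.09).

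Type IV collagen, the network of basement membranes, did not show the pattern of the fibrillar chains. All 6 genes were tested, limma called 0, and 0 had an unadjusted p under 0.05 by the brightest probe set (median difference -0.02). For Col4a1, present in nearly all basement membranes, signals were 6419, 6824 and 6776 in control and 5565, 6891 and 7533 in high fat mice (log2 -0.01, 95% interval -0.32 to 0.29). A second Col4a1 probe set read 3081, 2996 and 3192 against 2221, 2531 and 2931, lower without overlap and not called over probe sets (log2 -0.28). The partner Col4a2 read 5124, 4935 and 5626 against 5377, 5942 and 5734 (log2 0.12, 95% interval -0.13 to 0.37). In RefSeq the annotated starts of Col4a1 and Col4a2 lie 21 bases apart on opposite strands, with the 5′ ends of the transcripts overlapping. The starts of Col4a6 and Col4a5 lie 1343 bases apart, with a gap between the transcripts. The intervals of Col4a1 and Col4a2 leave out changes of the size called for Col1a1.

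For the chains of the alveolar network, the probe sets of a gene gave different sizes of difference. Col4a3 by its brightest probe set read 1340, 2364 and 1471 in control and 933, 1542 and 1054 in high fat mice (log2 -0.54, SE 0.25, limma adjusted p = 0.209). Its other probe set, 1450224_at, read 1899, 2341 and 2052 in control and 775, 852 and 632 in high fat mice, with no overlap. That is 0.358 times the control level (log2 -1.48, SE 0.15), called over all 27022 probe sets (limma adjusted p = 0.00238). This probe set was called in all 6 fits with 1 mouse left out and in all 8 other fits, with differences from -1.58 to -1.21. Its mean in control mice, 2097, was above the 1725 of the brightest probe set. For Col4a3 the choice of the brightest, and with it the lack of a call, thus depended on the high fat mice.

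Col4a4 behaved similarly at a smaller size. Its brightest probe set read 3569, 4557 and 3819 against 3002, 3821 and 2693 (log2 -0.34, SE 0.16, limma adjusted p = 0.216), with overlap. Of its other probe sets, 1425772_at fell from 745, 881 and 828 to 437, 645 and 503 (log2 -0.65, limma adjusted p = 0.0408 over probe sets), and the third differed by -0.15. The called one kept its call in 1 of 6 fits with 1 mouse left out and in 3 of 8 other fits, with differences from -0.65 to -0.37 in the latter (limma adjusted p up to 0.187, with median centring).

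Col4a5 showed the same split between probe sets. By the brightest, signals were 2477, 3476 and 2593 against 2484, 3021 and 2789 (log2 -0.03). The other, 1425475_at, fell from 1202, 1201 and 1244 to 928, 659 and 648 (log2 -0.73, limma adjusted p = 0.023 over probe sets), and kept its call in 1 of 6 fits with 1 mouse left out and in 6 of 8 other fits (down to log2 -0.45 and adjusted p = 0.0876, with median centring). Why probe sets of 1 gene differ was not tested. Col4a6, a chain of smooth muscle and bronchial basement membranes, differed by 0.01 and 0.28 in its 2 probe sets.

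Counted over probe sets, 3 of 12 type IV probe sets were called lower and 0 higher, and these 3 were singled out after their values were seen. Over all collagen probe sets tested, 7 of 51 were called higher (13.7 percent, against 4.63 percent of all tested probe sets) and 5 lower (9.8 percent, against 8.27 percent). The share called lower was thus near that of the whole array. Of 18 genes with several tested probe sets, the signs were equal for 16 and differed for Col1a2 and Col27a1.

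**Figure D3:**
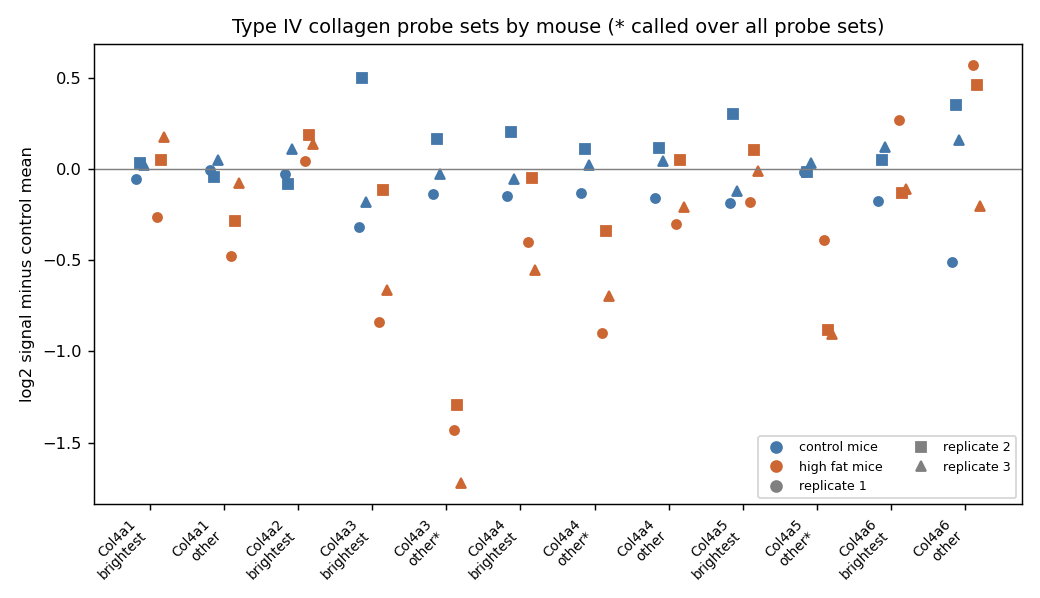
Log2 signal of each of the 12 type IV collagen probe sets in each mouse, minus the mean of the control mice for that probe set; an asterisk marks a probe set called over all probe sets. The second Col4a3 probe set lies more than 1 log2 unit below control in all 3 high fat mice, while both groups overlap for Col4a2 and for the brightest probe sets.

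The beaded filament type VI collagen is built from Col6a1, Col6a2 and Col6a3, of which limma called 0 (1 with an unadjusted p under 0.05). Col6a1 read 4032, 3283 and 3194 in control and 4563, 5104 and 4373 in high fat mice, with no overlap (log2 0.42, SE 0.13, limma adjusted p = 0.0848). Its partners showed no such separation. Col6a2 read 3992, 3287 and 2739 against 3977, 3101 and 3157 (log2 0.04), and its other probe set differed by 0.43. Col6a3 read 3281, 3898 and 2645 against 3263, 3756 and 3045 (log2 0.05).

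The remaining 3 classes had no called gene. The multiplexins Col15a1 and Col18a1 belong to vascular and epithelial basement membrane zones, and Col18a1 is the source of endostatin. Col18a1 read 498, 559 and 472 against 771, 671 and 708, with no overlap (log2 0.49, SE 0.14, limma adjusted p = 0.0679), and its second probe set differed by 0.14 with overlapping groups. Col15a1 had the largest positive difference of all tested collagen genes (log2 1.07, SE 0.63), but this rested on control replicate 3, whose signal of 28.4 stood against 175 and 168 in the other controls and 239, 169 and 194 in high fat mice. Without that mouse the difference was 0.21. Of the short chain collagens, Col8a1 differed by 0.41 and Col8a2 by 0.32, and Col7a1, the anchoring fibril chain, by -0.03, all with overlapping groups.

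Chains that share a triple helix were compared within each array, as the log2 ratio of partner signals, which shows unequal change only. Of 7 pairs, none reached a smaller exact permutation p than 0.1, the lowest possible, and adjusted p ran from 0.35 to 0.9. The log2 ratio of Col1a1 to Col1a2 was -2.54, -3.23 and -2.48 in control and -2.28, -2.44 and -2.37 in high fat mice, a difference of 0.38 (exact permutation p = 0.1, adjusted p = 0.35). That of Col6a1 to Col6a3 was likewise separated, with 0.3, -0.25 and 0.27 against 0.48, 0.44 and 0.52 (exact permutation p = 0.1, adjusted p = 0.35). Without control replicate 2 these differences were 0.14 and 0.20. For Col4a1 to Col4a2 the difference was -0.13 and for Col5a1 to Col5a2 0.34, both with overlapping groups (exact permutation p = 0.4 each).

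**Figure D4:**
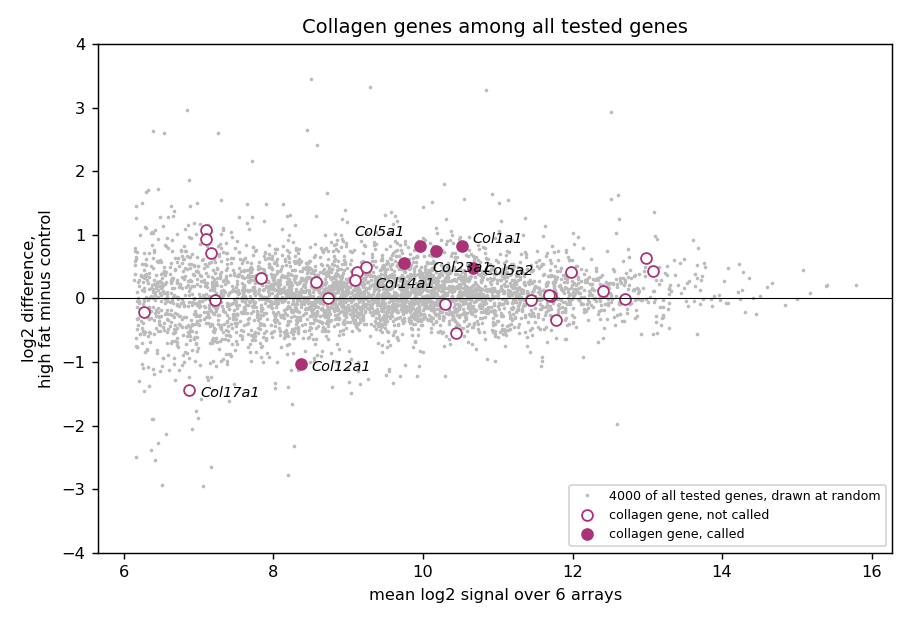
Log2 difference between diets against mean log2 signal for the 29 tested collagen genes (circles, filled when called) over 4000 of the tested genes drawn at random (grey points). The called collagen genes lie between 0.47 and 0.82, apart from Col12a1 at -1.03.

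Other genes of collagen synthesis and turnover were read from lists, beside all tested genes, of which 4.56 percent were called higher, 2.2 percent lower and 25.5 percent had an unadjusted p under 0.05 (median 0.06). Of 18 tested genes of chain folding and hydroxylation, 2 rose, 0 fell and 16 were not called (6 with an unadjusted p under 0.05, median 0.23). Serpinh1, which encodes the collagen chaperone HSP47, went from 3336, 2929 and 2652 to 4221, 5130 and 5315 (1.64-fold, limma adjusted p = 0.0207). Crtap, part of the prolyl 3-hydroxylation complex, rose 1.64-fold (limma adjusted p = 0.0245). The prolyl hydroxylase subunits P4ha1 and P4hb were not called (log2 0.12 and 0.2).

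Of 9 genes of propeptide cleavage and crosslinking, 2 rose and 0 fell. They were Bmp1, the procollagen C-proteinase (1.51-fold, limma adjusted p = 0.0488), and the lysyl oxidase relative Loxl1 (1.39-fold, limma adjusted p = 0.0455). Lox itself read 1224, 1582 and 1635 in control and 1410, 4054 and 2678 in high fat mice and was not called. Among 16 regulators of fibril assembly, Fmod, the small proteoglycan fibromodulin, rose from 160, 237 and 168 to 457, 427 and 486 (2.46-fold, limma adjusted p = 0.0121). Bgn, the related biglycan, rose 1.41-fold (limma adjusted p = 0.0488), and 14 were not called.

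Of 10 tested collagen receptor genes limma called 0, and 4 had an unadjusted p under 0.05 (median -0.1). Among 18 regulators of collagen synthesis only Tgfb3, a ligand of the TGF-beta family, rose (1.59-fold, limma adjusted p = 0.0345), and Tgfb1 differed by -0.1. Of 13 turnover genes, 3 rose and 1 fell. The membrane collagenase Mmp14 rose 1.56-fold, the inhibitor Timp2 1.48-fold and Timp4 3.68-fold (limma adjusted p = 0.0269, 0.0425 and 0.0345), while the neutrophil collagenase Mmp8 fell (limma adjusted p = 0.0322). Mmp8 read 121, 177 and 349 in control and 51.1, 58.2 and 53.8 in high fat mice, all under the filter's signal of 70.3, so that it was tested only through its controls and the size of its fall is uncertain. Averaged over all its probe sets, Timp2 was lower (-0.25). Of 16 further basement membrane genes, Lamb2 rose 1.78-fold and Lama3, a laminin chain of epithelia, fell to 0.553 times (limma adjusted p = 0.0167 and 0.0213). With 1 mouse left out, Fmod stayed called in 5 of 6 fits, Crtap, Lama3 and Lamb2 in 3, Serpinh1 in 2, Mmp14, Mmp8, Timp2 and Timp4 in 1, and Bmp1, Loxl1, Bgn and Tgfb3 in 0.

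Transcripts of other cells and tissues that can make collagen also differed between the groups. A score averages log2 signals over a list's tested genes and is set to 0 at the control mean. The fibrillar score was 0.12, 0.06 and -0.18 in control and 0.62, 0.52 and 0.64 in high fat mice. The score of 11 fibroblast markers was 0.15, -0.07 and -0.08 in control and 0.26, 0.31 and 0.3 in high fat mice, with 0 of 11 called by limma (5 with an unadjusted p under 0.05). Pdgfra, a receptor of lung fibroblasts, differed by 0.21 and Dcn, also on the list of fibril regulators, by 0.42 (limma adjusted p = 0.443 and 0.106). Other members went further or the other way: Pi16 differed by 0.91, Pdgfrb by 0.74, Dpt by 0.53, Npnt by -0.25 and Lum by -0.06.

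The scores of adipocyte, mesothelial and smooth muscle markers also separated the groups, although not every marker did. Groups did not overlap for 9 of 10, 6 of 8 and 8 of 10 of these markers, against 31.8 percent of all tested genes. The smooth muscle markers Des and Actg2 had overlapping groups. Over all tested genes, 4.56 percent were called higher, 2.2 percent lower and 25.5 percent had an unadjusted p under 0.05. Scores of 10 adipocyte markers ran from -0.85 to 0.94 in control and from 2.18 to 2.84 in high fat mice, with 7 called higher, such as Adipoq (9.71-fold, limma adjusted p = 0.00795). Mrap, also called, read 20.5, 26.2 and 70.1 in control, all under the filter's signal of 70.3, and 336, 268 and 339 in high fat mice. It was tested only through its high fat mice, so the size of its rise, which enters the score, is uncertain. The lowest control signals of the called Pck1 and Retn, 46.1 and 48.0, also lay under the filter's signal. Scores of 8 mesothelial markers ran from -0.15 to 0.18 and from 0.86 to 1.53, with 4 called higher, Wt1 and Upk3b among them. Smooth muscle scores over 10 markers ran from -0.22 to 0.16 and from 0.45 to 1.43, with 4 called higher, highest in high fat replicate 1. Of 8 endothelial markers 2 fell, and scores ran from -0.20 to 0.11 and from -0.46 to -0.14. Of 8 leukocyte markers 2 fell, with scores of -0.19 to 0.22 and -1.11 to -0.33. Of 10 cardiac markers 1 rose, with scores of -0.70 to 0.52 and -0.03 to 2.43, and limma called 0 of 8 skeletal muscle (0 with an unadjusted p under 0.05), 0 of 8 lung epithelial (2) and 0 of 2 cartilage (1) markers. Some members went against their list, with overlapping groups. Examples were Krt19 (mesothelial, -0.08), Kdr (endothelial, 0.14), Itgam and Lyz2 (leukocyte, 0.58 and 0.08) and Myl3 (cardiac, -0.20). The part of all these cell types in the collagen differences was not tested.

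**Figure D5:**
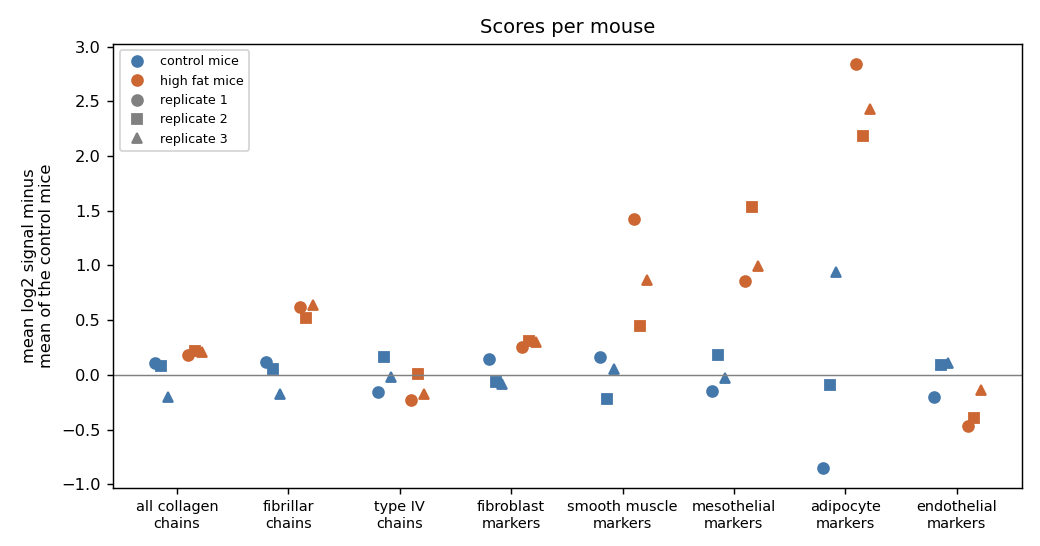
Mean log2 signal of collagen groups and of marker lists in each mouse, minus the mean of the control mice. Fibrillar chains separate the groups (0.52 to 0.64 against at most 0.12), type IV chains do not, and adipocyte, mesothelial and smooth muscle markers separate them as well.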

How the data were processed

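Lung RNA of 3 control and 3 high fat mice was measured on 1 array each. The deposited values are intensity values made by the authors with MAS5, per the submitters' processing notes; no version or setting is named there. All columns were used. Trimmed by 2 percent at each end, every array had a mean of 500, so differences in total signal were removed before deposit. Dim MAS5 values are noisy, because mismatch probes are subtracted. The number of arrays limits the precision.

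GEO's platform annotation named 1 symbol for 34958 of 45101 probe sets, several for 932 and none for 9211. Symbols were checked by Entrez ID against RefSeq for GRCm38.p6 (34754 found, 0 changed). Signals below 1 were set to 1 before log2. Control probe sets (64) were left out. The test was limma 3.58.1 (R 4.3.3), lmFit and eBayes with an intensity trend, two-sided, 4 residual degrees of freedom, with Benjamini-Hochberg adjustment over 12689 genes or 27022 probe sets, and was tested on simulated data. Partner ratios had exact permutation tests over 20 relabelings. The labels do not say whether litters, cages or processing days were shared.

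Members and lists were chosen with earlier results of these data known. Values on every array are given for called genes and types I, III, IV, V and VI, and for the 3 largest uncalled differences each way; from each list, called genes up to 4 by smallest p. Chad, Cytl1, Sftpc, Pdgfra, Dcn, P4ha1, P4hb, Lox, Tgfb1 and the uncalled collagen genes given in addition were named after their values were seen. So were Pi16, Pdgfrb, Dpt, Npnt, Lum, Mrap, Pck1, Retn, Des, Actg2, Krt19, Kdr, Itgam, Lyz2 and Myl3. Alternatives were other scalings, filters, an offset of 32, no trend, the replicate number as a block, the mean of all probe sets and leaving out mice. Leaving out replicate 1 of both groups, and all alternatives of probe sets and list genes, were added after the data were seen.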

Additional observations from a re-analysis of the deposited data

How the results depend on the processing

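In 15 alternative fits, the 6 called collagen genes kept their sign in 88 of 89 values; the exception was Col14a1 with the mean of all probe sets (-0.091). Genes called higher (5) ranged from 1 to 2 and genes called lower (1) from 0 to 1 with 1 mouse left out. The excess of the collagen median over all genes (0.24) was 0.16 without the filter and 0.17 with the mean of all probe sets. Median centring gave 13 higher and a median of 0.57 (main 0.29); limma without an intensity trend called 0 higher and 0 lower (11 and 2 with an unadjusted p under 0.05); the mean of all probe sets gave 2 higher, 1 lower (Col4a3) and a median of 0.14; leaving out replicate 1 of both groups gave 2 higher and 0 lower. The cause of these changes was not tested. Median centring moved the median of all tested genes up by 0.27, and fits with fewer mice called fewer genes over the whole array. The labels give replicate numbers but state no pairing of mice across the groups. Deviations of same-numbered mice correlated at 0.17, 0.11 and -0.04, and those of unlike-numbered mice at -0.21 to 0.13. With 3 mice per group these values cannot show whether mice were paired. With the replicate block, 4 genes were called higher and 2 lower, the second being Col4a3.

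Signs also turned for collagen genes that were not called. With quantile normalization these were Col6a2 and Col6a3 (-0.022 each), Col7a1 (0.22), Col22a1 (0.077) and the ratio of Col8a1 to Col8a2 (-0.056). With median centring they were Col13a1 (0.19), Col22a1 (0.068), Col4a1 (0.26), Col4a5 (0.24) and Col7a1 (0.24). With the mean of all probe sets Col27a1 turned to -0.099, as did the called list gene Timp2 (-0.25). Without replicate 1 of both groups they were Col13a1 (0.21), Col22a1 (0.40), Col4a1 (0.084) and Col4a6 (-0.21). With 1 mouse left out, differences ran from -0.11 to 0.11 for Col4a1, -0.12 to 0.12 for Col4a5, -0.12 to 0.078 for Col4a6, -0.096 to 0.18 for Col6a2, -0.098 to 0.18 for Col6a3, -0.20 to 0.084 for Col7a1, -0.37 to 0.19 for Col13a1, -0.56 to 0.088 for Col22a1 and -0.19 to 0.48 for the ratio of Col8a1 to Col8a2. Dim probe sets, such as those of the 13 untested genes, limit what can be said of cartilage-type collagens.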
